A study of Mus musculus with 9 samples.

Results

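Of the 9 mouse hippocampus libraries of this series, 5 held more than 1000 TPM of Ttr and 4 held less. TPM is a transcript abundance scaled by transcript length and relative to all transcripts of a library. Ttr encodes transthyretin, the carrier of thyroid hormone and retinol that choroid plexus epithelium makes in large amounts and secretes into the cerebrospinal fluid. The 5 libraries above the limit, called Ttr-high here, were control 3, PFOS P1-7 1, PFOS P1-7 3, PFOS P8-14 1 and PFOS P8-14 2. The 4 below it, called Ttr-low, were control 1, control 2, PFOS P1-7 2 and PFOS P8-14 3. The lowest Ttr-high value was 9446 TPM (PFOS P8-14 1) and the highest Ttr-low value was 108 TPM (PFOS P8-14 3), so no library lay near the limit. Because the libraries were chosen by their measured Ttr level, every comparison between the 5 and the 4 is a description and carries no test.

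The samples were hippocampi of wild-type (WT) mice at postnatal day 21, in 3 groups of 3. The control group was sham-treated. In the other groups, pups took up perfluorooctane sulfonate (PFOS), a persistent fluorinated surfactant, from the milk of dams gavaged daily with 1 mg/kg of body weight, on postnatal days 1 to 7 (PFOS P1-7) or 8 to 14 (PFOS P8-14). Strain, sex, litter and dissection date are not given in the labels, nor is it said that each sample is a separate animal, so the p-values below measure only the spread between these samples, which may be technical. The control group held 1 Ttr-high and 2 Ttr-low libraries, and each PFOS group held 2 Ttr-high and 1 Ttr-low.

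Choroid plexus is a sheet of cuboidal epithelium on a core of stroma and fenestrated capillaries, which hangs into the brain ventricles and secretes cerebrospinal fluid. In the lateral ventricle it attaches along the inner edge of the hippocampus, at the choroid fissure. The neighbouring ventricle wall is lined by ependyma, whose beating cilia move the fluid, and choroid epithelial cells are themselves ciliated. In bulk tissue, fewer cells of a type and less RNA per cell cannot be told apart.

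The hippocampal label was checked against Prox1, a transcription factor of dentate granule neurons, Wfs1 of CA1 and Grik4 of CA3, and these were present in all 9 libraries, at 17.1 to 51.5, 122 to 233 and 43.3 to 67.8 TPM. Ddx3y, on the Y chromosome, stood at 23.1 to 36.1 TPM in all 9, and Xist, the RNA of the inactive X, at no more than 0.03 TPM. Between 13810 and 14220 gene symbols per library had at least 1 TPM. Across genes, the rank correlation of TPM deviations with transcript length ran from -0.30 in control 3 and -0.26 in control 2 to 0.27 in PFOS P1-7 2, and these libraries lie on both sides of the split. TPM keep no sequencing depth, so depth is unknown and no counting interval is given.

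Genes of the choroid epithelium and of motile cilia were higher in the Ttr-high libraries. Genes of neurons, glia and blood vessels mostly overlapped between the sets, as did most tested genes. In 3 or more libraries 14336 genes reached 1 TPM. Of these, 590 (4.12%) were higher in all 5 Ttr-high than in all 4 Ttr-low libraries, and 116 (0.809%) were lower in all 5. The gap, which is the lowest log2(TPM + 1) of the higher set minus the highest of the lower set, amounted on the TPM + 1 scale to at least 2 times for 56 genes and at least 8 times for 5 genes, all of them higher. Under quantile normalization 503 genes were higher and 238 lower. Among the lower genes, 5 had a gap of at least 1.2 times and none of the 116 reached 1.5 times. The median log2 difference over all tested genes was -0.01. Of the 590 genes, 102 were under 1 TPM in all 4 Ttr-low libraries and so passed the filter on low values only through the set in which they were high.

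Ttr, which set the split, and 4 further markers of choroid epithelium were read in every library. Ttr stood at 10420 TPM for control 3, and measured 11626 and 10042.5 TPM in PFOS P1-7 1 and 3, and 9446 and 9864 TPM in PFOS P8-14 1 and 2. Among the Ttr-low libraries it stood at 52.8 and 35.1 TPM for control 1 and 2, at 39.6 TPM for PFOS P1-7 2 and at 108 TPM for PFOS P8-14 3. Ttr alone made up 0.945 to 1.16% of all TPM in the first set and at most 0.0108% in the second.

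Folr1, the folate receptor that carries folate across the choroid epithelium, measured 14.3 TPM in control 3, 56.1 TPM in PFOS P1-7 1, 62.9 TPM in PFOS P1-7 3, and 60.3 and 35.5 TPM in PFOS P8-14 1 and 2, against 0.71 to 2.05 TPM in the Ttr-low libraries. Kcnj13, an inwardly rectifying potassium channel of the apical membrane, ranged from 25.3 TPM (control 3) to 37.4 TPM (PFOS P1-7 1), against 0.10 to 0.51 TPM. Aqp1, the apical water channel, measured 12.4 TPM in control 3 and 27.5 to 47.4 TPM in the other Ttr-high libraries, against 0.31 to 1.05 TPM. The same order held for Clic6, a chloride channel family member, with 15.5 TPM in control 3, 24.4 to 47.8 TPM in the other 4 and 0.75 to 1.5 TPM in the Ttr-low set. For these 4 markers the sets did not overlap, and control 3 was the lowest of the Ttr-high libraries for each.

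**Figure D1:**
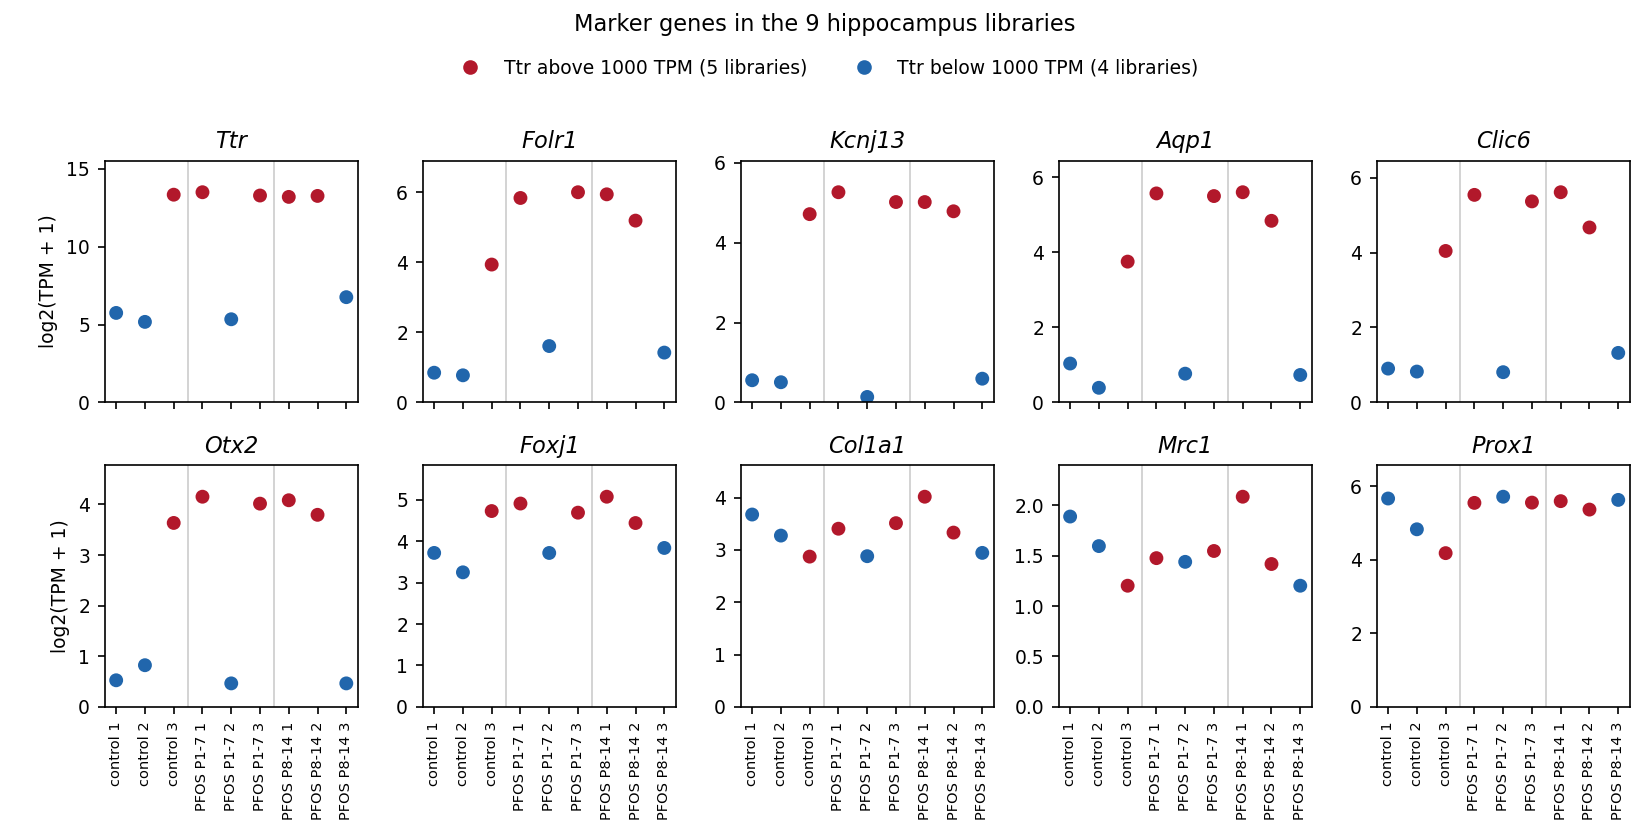
Level of 10 marker genes in each library as log2(TPM + 1), in red for the 5 Ttr-high and in blue for the 4 Ttr-low libraries, with grey lines between the exposure groups. Ttr, Folr1, Kcnj13, Aqp1, Clic6, Otx2 and Foxj1 did not overlap between the colours, whereas Col1a1 (stroma), Mrc1 (border macrophages) and Prox1 (dentate granule neurons) did.

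The lists of choroid epithelial genes, sorted by role, held 113 genes, of which 106 were tested. Of these 106, 62 (58.5%) were higher in all 5 Ttr-high libraries and none was lower, against 4.12% and 0.809% of all tested genes. Among the 62, 14 were under 1 TPM in all 4 Ttr-low libraries. These passed the filter only through the set in which they were high, so they could not count as lower. The same 4.12% stands beside the count of each list by role below. The lists' median log2 difference between the sets was 0.84, and 91 of the 106 genes had a median difference above 0. Without the 5 markers, 57 of 101 were higher and the median was 0.77. The lists summed to 1.73 to 2.09% of all TPM in the Ttr-high and 0.570 to 0.665% in the Ttr-low libraries. Without Ttr the sums were 0.692 to 0.975% and 0.567 to 0.658%.

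Among secreted proteins, 15 of 23 tested genes were higher in all 5, with a median log2 difference of 1.65, and all 23 had a median difference above 0. 1500015O10Rik, now named Ecrg4 and encoding a secreted peptide precursor, measured 203 to 260 TPM against 3.93 to 6.94 TPM. Sostdc1, a secreted inhibitor of BMP and Wnt signalling, measured 26.8 to 38.4 TPM against 4.78 to 5.92 TPM. Lbp, which binds bacterial lipopolysaccharide, spread more widely, from 16.2 TPM in control 3 to 38.4 TPM in PFOS P8-14 1, against 2.28 to 3.76 TPM.

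Some further secreted proteins, chosen after their values were seen, started from a higher level in the Ttr-low set. Enpp2, which makes lysophosphatidic acid and is also an oligodendrocyte gene, measured 461 to 1278 TPM against 99.3 to 139 TPM. Igfbp2, an insulin-like growth factor binding protein, measured 159 to 196 TPM against 24.9 to 45.8 TPM. Igf2, a growth factor also made in meninges, had a small gap, from 72.5 TPM in control 1 to 103 TPM in control 3. These 3 genes were thus separated without being near 0 in any library.

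Ion and water transport genes followed, with 14 of 22 higher in all 5 and a median log2 difference of 0.87. The difference of medians was above 0 for 17 of the 22 genes. Kcne2, a subunit of apical potassium channels, measured 10.6 TPM in control 3, 22.3 TPM in PFOS P1-7 1, 20.7 TPM in PFOS P1-7 3, and 23.8 and 15.4 TPM in PFOS P8-14 1 and 2, against 0.09 to 0.48 TPM. Slc4a5, a sodium bicarbonate cotransporter, measured 5.64 to 22.7 TPM against 0.14 to 0.25 TPM, and was picked after its values were seen, as was Trpv4. Trpv4, an osmosensitive cation channel, measured 9.41 to 15.03 TPM against 0.73 to 1.11 TPM. A narrow gap was that of Slc12a2, the sodium, potassium and chloride cotransporter that neurons and glia also make, at 44.5 to 67.3 TPM against 30.1 to 42.9 TPM.

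Carriers of nutrients, vitamins and organic solutes held 12 of 26 genes higher in all 5 and a median log2 difference of 0.49. Of the 26 genes, 23 had a median difference above 0. Beside Folr1, the monocarboxylate carrier Slc16a8 measured 4.32 to 9.81 TPM and no more than 0.09 TPM in the Ttr-low libraries, where control 2 is listed at 0. Steap1, a metalloreductase family member, measured 7.94 to 17.3 TPM against 0 to 1.2 TPM. The sulfate carrier Slc13a4 measured 12 to 25.5 TPM against 2.37 to 4.34 TPM.

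Receptors were the choroid list with the smallest share, 4 of 11, and a median log2 difference of 0.05. Only 6 of the 11 had a median difference above 0. Prlr, the prolactin receptor, measured 3.61 to 6.45 TPM against 0.41 to 1.00 TPM. Kl, which encodes the co-receptor klotho and is also expressed in hippocampal neurons, measured 17.7 to 46.6 TPM against 5.35 to 9.78 TPM. The sets lay closer for Htr2c, a serotonin receptor, at 31.2 to 52.7 TPM against 14.9 to 25.6 TPM, and for Lepr, the leptin receptor, at 1.99 to 5.46 TPM against 1.27 to 1.40 TPM.

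Junction, cytoskeleton and keratin genes had 11 of 15 higher in all 5 and a median log2 difference of 1.18, and all 15 had a median difference above 0. Calml4, a calmodulin-like protein of brush borders, measured 37.7 to 52.1 TPM against 3.10 to 4.75 TPM. The paired keratins of simple epithelia, Krt8 and Krt18, measured 4.89 to 7.90 TPM and 13.2 to 19.2 TPM, against 0.15 to 0.63 TPM and 0.23 to 1.35 TPM. Cldn2, the pore-forming claudin of leaky epithelia, measured 6.30 TPM in control 3 and 10.8 to 19 TPM in the other 4, against 0.36 to 0.52 TPM.

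Of 9 tested transcription factors, 6 were higher in all 5, with a median log2 difference of 1.2, and 7 had a median difference above 0. Otx2, which specifies and maintains choroid epithelium, measured 11.4 TPM in control 3, 16.8 TPM in PFOS P1-7 1, 15.2 TPM in PFOS P1-7 3, and 15.9 and 12.9 TPM in PFOS P8-14 1 and 2. In the Ttr-low libraries it measured 0.38 to 0.77 TPM. Gmnc, which encodes the multiciliogenesis regulator GEMC1, measured 7.35 TPM in control 3, the highest of all 9 libraries, 4.32 to 5.97 TPM in the other Ttr-high and 0.85 to 1.11 TPM in the Ttr-low set. The roof plate factors Msx1 and Lmx1a were separated as well, at 16.9 to 31.1 TPM against 5.69 to 6.70 TPM and at 1.38 to 2.86 TPM against 0.07 to 0.31 TPM.

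**Figure D2:**
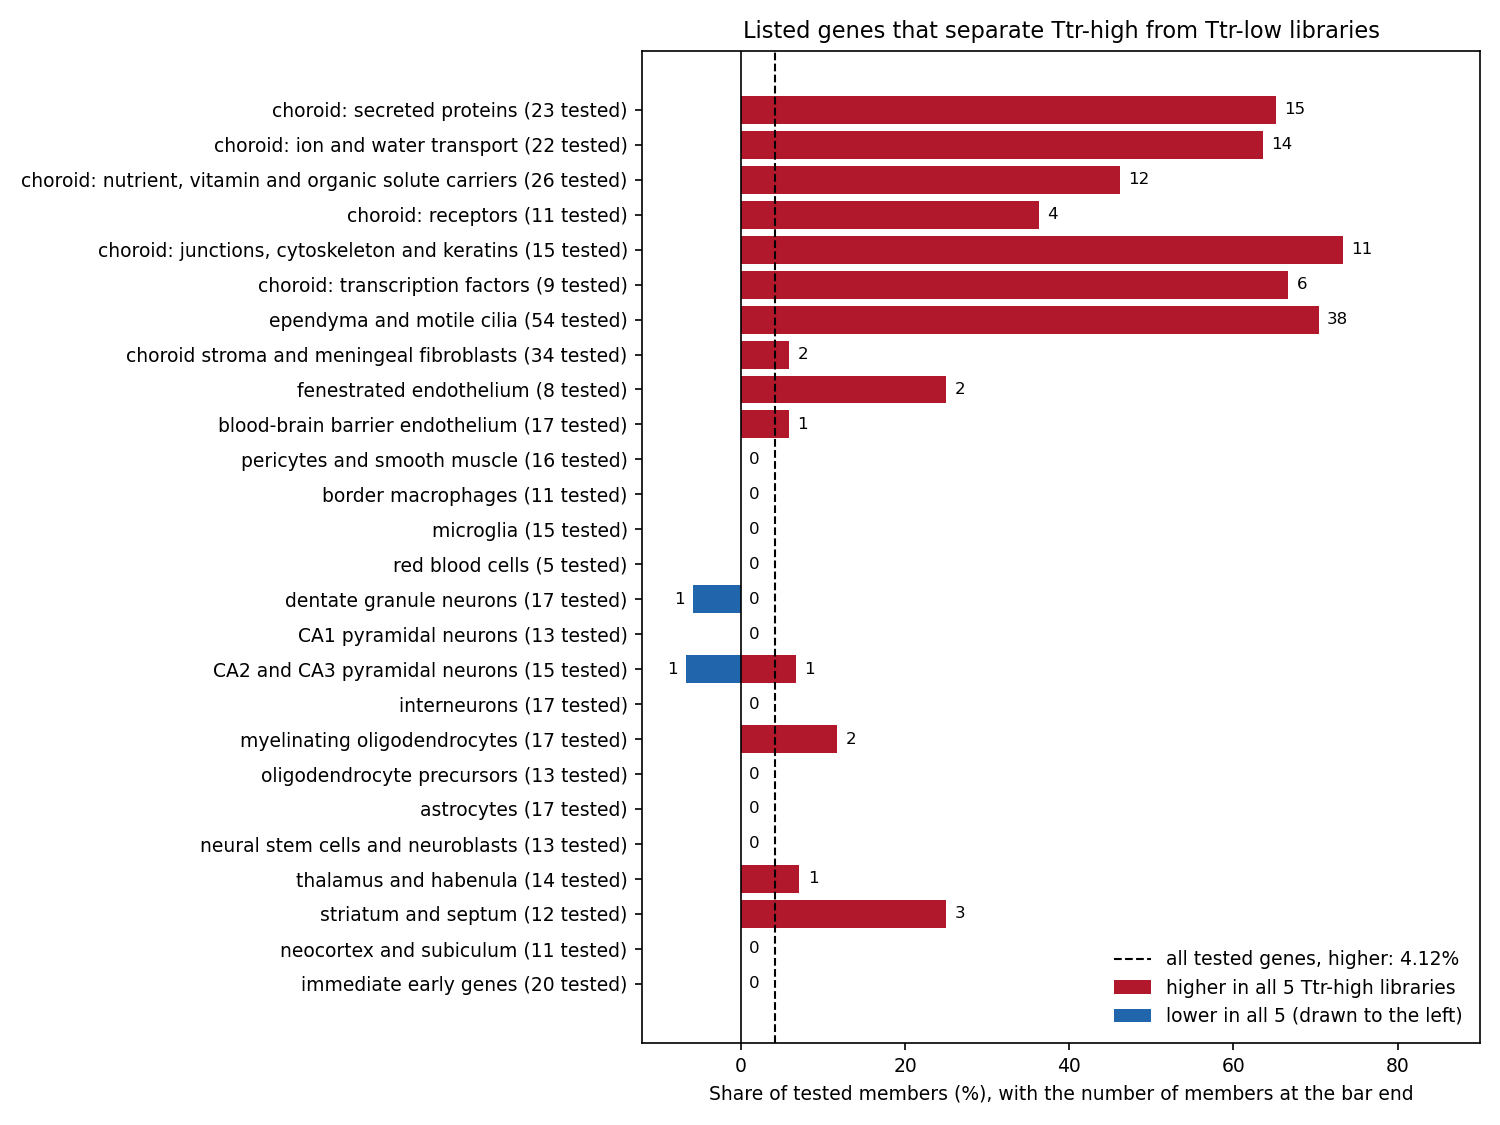
Share of the tested members of each gene list that were higher (red, right) or lower (blue, left) in all 5 Ttr-high than in all 4 Ttr-low libraries, with the number of members at the bar ends and the 4.12% of all tested genes as a dashed line. The choroid epithelial lists (4 of 11 to 11 of 15 members) and the cilia list (38 of 54) reach furthest to the right, and Calb1 and Necab1 are the 2 members drawn to the left.

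Cilia genes were separated as well, with smaller differences than the leading choroid genes. As a list they were like the choroid lists without the 5 markers, whose median log2 difference was 0.77 with 56.4% of genes higher. The list of ependyma and motile cilia held 60 genes, of which 54 were tested. Of these, 38 (70.4%) were higher in all 5, against 4.12% of all tested genes, with a median log2 difference of 0.77. Among the 38, 2 were under 1 TPM in all 4 Ttr-low libraries. Foxj1, the master transcription factor of motile cilia, measured 25.5 TPM in control 3, 29.1 TPM in PFOS P1-7 1, 24.8 TPM in PFOS P1-7 3, and 32.7 and 20.7 TPM in PFOS P8-14 1 and 2. Its Ttr-low values were 12.2, 8.51, 12.2 and 13.3 TPM, so that Foxj1 was well above 0 in every library.

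The widest gaps of the cilia list belonged to genes of axoneme proteins or cilia assembly. 1700009P17Rik, now named Cfap126, measured 12.96 to 19.1 TPM against 3.42 to 4.38 TPM. Ccdc135, now Drc7, a part of the dynein regulatory complex, measured 7.41 to 12.2 TPM against 0.83 to 2.40 TPM. Ccdc113, a protein of cilia assembly, measured 5.69 to 7.46 TPM against 1.36 to 2.28 TPM, and Ccdc108, now Cfap65, 6.20 to 8.51 TPM against 1.55 to 2.65 TPM. The ratio of set medians was 3.48, 5.41, 3.14 and 3.24 for these 4 genes, against 217 for Ttr, which set the split, 70.5 for Kcnj13 and 37.0 for Otx2. The last 3 are among the choroid genes of large difference and do not stand for the choroid lists as a whole.

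Markers used to tell ependyma apart were read too. Ccdc153, an ependymal marker, measured 20.7 to 31.3 TPM against 8.59 to 17.1 TPM. Mia, a small secreted protein, measured 22.6 to 50.5 TPM against 6.04 to 10.98 TPM. Dynlrb2, a dynein light chain of the roadblock type, measured 11.4 to 32.2 TPM against 3.49 to 10.6 TPM. The secreted chemerin, Rarres2, came to 20.9 to 40.2 TPM against 14.2 to 20.4 TPM. Tmem212 overlapped, at 12.5 to 22.3 TPM in the Ttr-high and 6.58 to 13.7 TPM in the Ttr-low libraries. Since both choroid epithelium and ependyma carry cilia, the cilia genes do not tell the 2 cell types apart here.

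The promoters of ciliary genes are known to hold binding sites of RFX factors, which work with FOXJ1. Windows from 250 bases before to 50 bases after the start of transcription (RefSeq, GRCm38.p6) were searched on both strands for an RFX-type motif (GTTGCC or GGCAAC), an Otx-type motif (TAATCC or GGATTA) and a forkhead motif (TGTTTAC or GTAAACA). No motif's letters hold another's. The windows matched 31 of the 38 separated cilia genes and 24 of 32 choroid genes with a gap of at least 2 times. The RFX-type motif was in 14 of 36 windows (38.9%) of the cilia genes, in 5 of 32 windows (15.6%) of the choroid genes and in 4111 of all 32851 windows (12.5%). Among windows of all tested genes its share was 12.9%. The Otx-type motif was in 13.9%, 6.25% and 7.06% of the cilia, choroid and all windows, and the forkhead motif in 8.33%, 3.13% and 3.65%. These shares are descriptions, and a match is not a bound site.

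The 250 bases before the start are printed for 3 cilia genes and 2 choroid genes whose window held the RFX-type motif, to show its place. They run on the strand of the gene, in lower case with matches to the RFX-type and Otx-type motifs in capitals, and were chosen after the search.
Lrrc23, chr6:124779728-124779977, minus strand: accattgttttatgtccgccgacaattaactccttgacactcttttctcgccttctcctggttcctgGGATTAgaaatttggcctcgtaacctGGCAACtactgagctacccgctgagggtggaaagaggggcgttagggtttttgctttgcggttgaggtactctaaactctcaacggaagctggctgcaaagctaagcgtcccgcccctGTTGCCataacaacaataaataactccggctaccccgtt
Tekt1, chr11:72361883-72362132, minus strand: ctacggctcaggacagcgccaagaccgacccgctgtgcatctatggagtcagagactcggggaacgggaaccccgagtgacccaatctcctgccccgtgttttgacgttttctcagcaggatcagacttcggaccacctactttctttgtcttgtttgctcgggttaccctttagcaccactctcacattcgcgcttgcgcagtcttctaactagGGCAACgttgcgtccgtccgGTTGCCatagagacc
Ccdc113, chr8:95533850-95534099, plus strand: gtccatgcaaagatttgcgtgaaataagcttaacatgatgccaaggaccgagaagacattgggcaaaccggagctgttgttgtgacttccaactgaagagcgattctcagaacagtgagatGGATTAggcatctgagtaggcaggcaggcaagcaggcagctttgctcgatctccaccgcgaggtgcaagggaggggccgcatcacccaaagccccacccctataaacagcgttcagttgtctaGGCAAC
Kcne2, chr16:92292139-92292388, plus strand: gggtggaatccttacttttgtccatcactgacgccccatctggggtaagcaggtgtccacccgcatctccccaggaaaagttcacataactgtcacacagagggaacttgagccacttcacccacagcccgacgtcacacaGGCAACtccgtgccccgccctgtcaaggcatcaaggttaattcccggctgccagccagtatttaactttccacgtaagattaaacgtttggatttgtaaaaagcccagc
Aqp1, chr6:55336049-55336298, plus strand: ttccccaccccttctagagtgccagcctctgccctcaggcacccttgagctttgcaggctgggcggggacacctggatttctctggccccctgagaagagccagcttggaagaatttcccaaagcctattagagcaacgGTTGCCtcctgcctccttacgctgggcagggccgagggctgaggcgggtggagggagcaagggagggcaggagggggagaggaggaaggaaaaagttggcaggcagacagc

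In Lrrc23 and Tekt1 the window holds 2 RFX-type matches, and in Ccdc113, Kcne2 and Aqp1 it holds 1. Lrrc23, a radial spoke protein, measured 8.64 to 15.5 TPM in the Ttr-high and 2.98 to 4.37 TPM in the Ttr-low libraries. Tekt1, a tektin of ciliary microtubules, measured 6.45 to 14.2 TPM against 3.37 to 4.93 TPM.

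Genes of the stroma, like most tested genes, overlapped between the sets, with a share of separated members near the 4.12% of all tested genes. Of 37 genes of choroid stroma and meningeal fibroblasts, 34 were tested, and 2 (5.88%) were higher in all 5, with a median log2 difference of 0.08. The 2 were Ogn, a small leucine-rich proteoglycan, at 4.53 to 6.75 TPM against 2.11 to 3.26 TPM, and Bgn, another of that family, at 15.6 to 20.4 TPM against 12.1 to 15.5 TPM. The fibrillar collagen Col1a1 measured 6.32 to 15.2 TPM in the Ttr-high and 6.36 to 11.8 TPM in the Ttr-low libraries. Decorin, Dcn, measured 17.9 to 42.1 TPM and 18.4 to 52.0 TPM, with its highest value in control 1, a Ttr-low library. The list summed to 764 to 1665 TPM and 655 to 1717 TPM, so the ranges of the sets overlapped. The width of this overlap rested on control 2, at 1717 TPM, as the next highest Ttr-low sum was 918 TPM (PFOS P8-14 3). Without control 3, 4 genes of the list were higher in all Ttr-high libraries, and over all genes the count rose from 590 to 848. Leaving out a sample cannot lower either count.

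Within the exposure groups the stromal list went in different directions. In the control group, the median log2 difference between control 3 and the mean of control 1 and 2 was -0.40, and 6 of 34 genes were higher in control 3. In the PFOS groups, the difference between the Ttr-high and Ttr-low libraries was 0.24 and 0.40, with 25 and 32 of 34 genes above 0. The difference between the groups was not tested. Border macrophage genes had the same signs, at -0.28, 0.17 and 0.33, with 3, 9 and 10 of 11 genes above 0.

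Fenestrated capillaries, which supply choroid plexus, were represented by 8 genes, of which 2 (25%) were higher in all 5, against 4.12% of all tested genes. Plvap, the diaphragm protein of fenestrae, measured 12.7 to 16.8 TPM against 5.37 to 7.94 TPM. Esm1, an endothelial proteoglycan, measured 0.64 to 1.47 TPM against 0 to 0.21 TPM. Of 17 genes of blood-brain barrier endothelium, 1 (5.88%) was separated, the phospholipid transfer protein Pltp at 128 to 143 TPM against 88.8 to 97.1 TPM.

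In pericytes (16 genes tested), border macrophages (11) and microglia (15), 0 genes were separated in either direction. Over all tested genes 4.12% were higher and 0.809% lower, so 0 in lists this short says little about these cells. Mrc1, a mannose receptor of border macrophages, measured 1.3 to 3.24 TPM in the Ttr-high and 1.3 to 2.7 TPM in the Ttr-low libraries. Their defining markers Pf4, Cd163 and Lyve1 were at low levels in all 9 libraries and none was listed at 0. The median microglial gene differed by -0.16, with 1 of 15 above 0, and the list summed to 608 to 674 TPM against 658 to 726 TPM.

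Genes of hippocampal neurons mostly overlapped between the sets, as did most tested genes, of which 4.12% were higher and 0.809% lower in all 5. None of 13 CA1 genes was separated, and 1 of them had a median difference above 0, with a list median of -0.17. Of 17 dentate granule genes, Calb1, the calcium buffer calbindin, was lower in all 5, at 48.2 to 68.3 TPM against 73.1 to 100 TPM. In CA2 and CA3 (15 genes), Necab1, a calcium-binding protein, was lower at 15.2 to 22.6 TPM against 24.7 to 28.4 TPM, and Map3k15, a kinase, was higher at 2.24 to 3.41 TPM against 0.85 to 1.81 TPM. Interneuron genes (17), astrocyte genes (17), oligodendrocyte precursor genes (13), neural stem cell genes (13), neocortical genes (11) and immediate early genes (20) held no separated member. The neocortical list had the lowest median of all lists, -0.22 with 2 of 11 genes above 0, and the interneuron list a median of -0.08 with 2 of 17 above 0.

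A few myelin and septal genes were separated, where 4.12% of all tested genes were higher in all 5. Of 17 genes of myelinating oligodendrocytes, Mag, a myelin adhesion protein, and Mbp, myelin basic protein, were higher in all 5, at 595 to 690 TPM against 429 to 538 TPM and at 8450 to 10585 TPM against 5606 to 8360 TPM. The gap of Mbp was narrow, and under quantile normalization its sets overlapped. The myelin list summed to 15603 to 19860 TPM against 10065 to 15419 TPM, and control 1 was the lowest library. Within the exposure groups the median log2 difference of the list was 0.48 in control and 0.40 in PFOS P1-7, with all 17 genes above 0, and -0.04 in PFOS P8-14, with 6 of 17 above 0. From the thalamic list 1 of 14 genes was separated, the transcription factor Zic1, at 13.4 to 46.2 TPM against 5.46 to 8.49 TPM.

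Of 12 genes of striatum and septum, 3 were higher in all 5. Six3, a forebrain transcription factor, measured 0.93 to 2.62 TPM against 0.07 to 0.28 TPM, Zic2 11.7 to 27.6 TPM against 9.29 to 10.6 TPM, and Ppp1r1b, the dopamine signalling protein DARPP-32, 82.9 to 101 TPM against 43.4 to 57.4 TPM. The list summed to 205 to 263 TPM in the Ttr-high and 148 to 185 TPM in the Ttr-low libraries. The part of neighbouring tissue in these values was not tested.

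**Figure D3:**
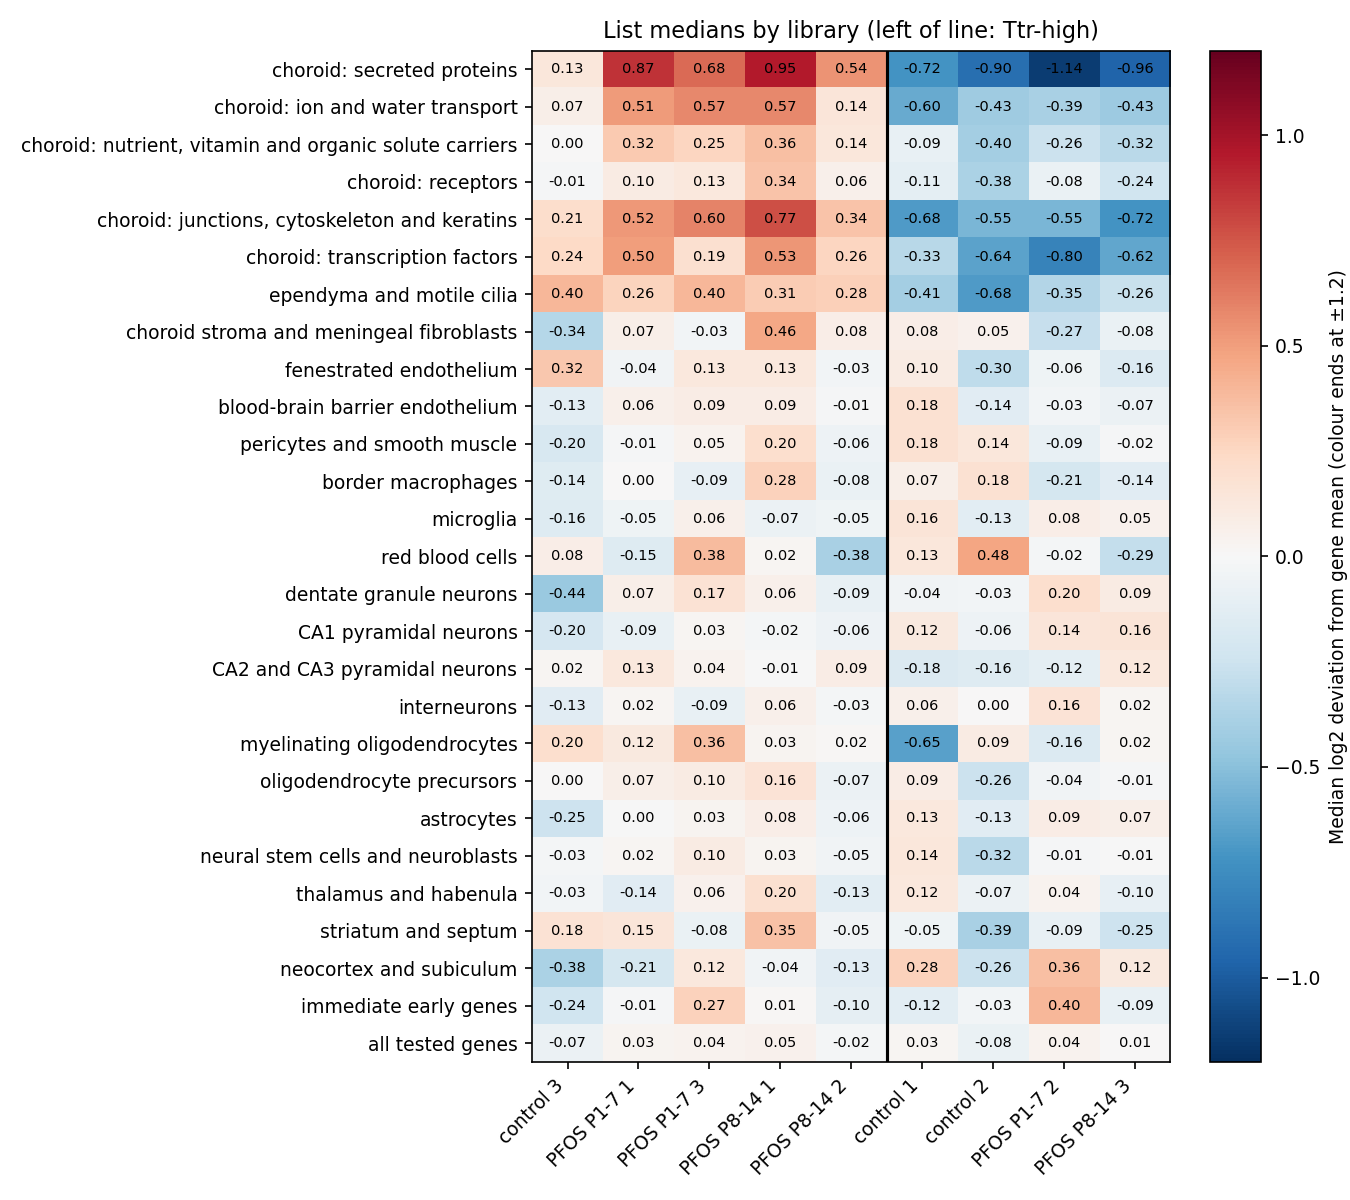
Median log2 deviation of each gene list from its genes' means over the 9 libraries, with the Ttr-high libraries left and the Ttr-low libraries right of the line. Secreted choroid proteins run from 0.13 (control 3) to 0.95 (PFOS P8-14 1) on the left and from -1.14 (PFOS P1-7 2) to -0.72 (control 1) on the right, while the stromal list varies from library to library on both sides.

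Most separated genes lay outside the lists, 478 of the 590 higher ones, of which 37 had predicted or clone-based names. The widest gap was that of Defb11, a beta-defensin, which is listed at 0 in all 4 Ttr-low libraries and measured 96.9 TPM in control 3, 88.0 TPM in PFOS P1-7 1, 97.1 TPM in PFOS P1-7 3, and 51.6 and 94.2 TPM in PFOS P8-14 1 and 2. Defb9, another beta-defensin, is listed at 0 in the same 4 and measured 3.77 to 11.2 TPM in the others. Wfdc2, a secreted protease inhibitor of epithelia, measured 11.9 to 21.2 TPM against 0 to 0.27 TPM. All told, 5 of the 590 genes were listed at 0 throughout the Ttr-low set.

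Further genes led those outside the lists. Mfrp, a membrane frizzled-related protein of retinal pigment epithelium, measured 4.74 TPM in control 3 and 8.45 to 15.98 TPM in the other 4, against 0.34 to 0.53 TPM. Col8a2, a collagen of basement membranes, measured 7.28 to 16.8 TPM against 0.60 to 2.02 TPM. The potassium-dependent sodium and calcium exchanger Slc24a5, known from pigment cells, measured 2.84 to 5.30 TPM against 0.08 to 0.33 TPM. The epithelial polarity gene Crb3 and the cadherin Cdh3 measured 3.35 to 4.73 TPM and 1.47 to 4.04 TPM, against 0 to 0.99 TPM and 0 to 0.18 TPM.

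The remaining genes of that group have varied known roles. Wdr86, a WD repeat protein, measured 6.53 to 14.8 TPM against 0.18 to 0.77 TPM. Pla2g5, a secreted phospholipase, measured 3.55 to 6.41 TPM against 0.20 to 0.63 TPM. The tubulin Tuba1c measured 10.7 to 21.0 TPM against 2.70 to 4.16 TPM, and Cox6b2, a cytochrome oxidase subunit, 13.4 to 22.5 TPM against 2.05 to 5.18 TPM. Epn3, an endocytic adaptor of epithelia, and Tcea3, a transcription elongation factor, measured 4.46 to 10.1 TPM against 0.92 to 1.49 TPM and 2.22 to 3.35 TPM against 0.12 to 0.52 TPM. Fxyd1, a regulator of the sodium pump picked after its values were seen, was among the most abundant, at 194 to 281 TPM against 72.7 to 94.9 TPM.

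Positions on mm10 were found for 588 of the 590 genes, and 25 pairs of them were neighbours within 10000 bases. How often other genes lie this near was not counted, so the number does not show clustering. The 4 pairs named here were picked after their values were seen. Folr2 lies 1141 bases from Folr1 on chromosome 7 and measured 1.84 to 2.76 TPM against 0.15 to 0.95 TPM. Col4a3 and Col4a4, basement membrane collagens that overlap at their starts on chromosome 1, measured 1.43 to 1.98 TPM against 0.23 to 0.44 TPM and 1.26 to 2.41 TPM against 0.23 to 0.44 TPM. Six3os1, which overlaps Six3 on chromosome 17, measured 1.83 to 2.54 TPM against 0.08 to 0.31 TPM. Mfrp and C1qtnf5 share 1 locus on chromosome 9, and C1qtnf5 measured 36.0 to 47.2 TPM against 14.8 to 19.9 TPM. Where genes overlap, how reads were divided between them is not given in the sources used here, so the values of such pairs are uncertain.

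The 116 lower genes had small gaps, and 114 of them lay outside the lists. Their number rested on control 2, without which 773 genes were lower in all 5. Eif2c3, now named Ago3, an Argonaute protein, had the widest gap among named genes, at 1.36 to 2.35 TPM in the Ttr-high and 3.32 to 6.42 TPM in the Ttr-low libraries. Smg1, a kinase of nonsense-mediated decay, measured 15.9 to 19.7 TPM against 23.8 to 27.8 TPM. Ryr3, a calcium release channel of neurons, measured 14.2 to 16.9 TPM against 18.9 to 23.4 TPM. Dgkh, a diacylglycerol kinase, varied widely within both sets, at 1.04 to 5.63 TPM against 6.31 to 20.2 TPM. Tmem245, a transmembrane protein, measured 1.87 to 3.07 TPM against 3.46 to 7.26 TPM, and Pgr, the progesterone receptor, 2.97 to 3.62 TPM against 3.98 to 5.6 TPM.

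The median transcript length of the lower genes was 1784 bases, against 1390 bases for the higher genes, 1484 bases for all tested genes, 1766 bases for the choroid lists and 1046 bases for the cilia list. Whether the length trend of libraries has a part in the lower genes was not tested.

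Within the Ttr-high set, control 3 stood apart. Over the 32 choroid genes with a gap of at least 2 times, the median log2 level relative to the median of the 5 libraries was -0.63 in control 3 and -0.39 in PFOS P8-14 2, against 0.16, 0.00 and 0.11 in PFOS P1-7 1, PFOS P1-7 3 and PFOS P8-14 1. Control 3 was the lowest library for 23 of the 32 genes and the highest for 1, which was Gmnc. PFOS P8-14 1 was the highest for 15.

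The 32 genes were not low to the same degree in control 3. Ttr stood at 104% of the median of the 5 libraries there, and 1500015O10Rik, Krt18 and Msx1 at 100% each. Folr1 stood at 25.5%, Col8a1, a collagen, at 27.2%, Aqp1 at 28.2%, F5, coagulation factor V, at 30.6%, Slc4a5 at 36.4% and Clic6 at 38.5%. Gmnc stood at 154%. Ttr and Igfbp2 were thus the least variable of the 32 among the Ttr-high libraries, with a ratio of highest to lowest of 1.23, and F5 the most, with 5.93, while the median ratio was 1.98.

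Transcript length moved with this pattern. In control 3 the 16 shorter transcripts (710 to 1661 bases) had a median of -0.36 and the 16 longer ones (1751.5 to 8967 bases) of -0.78. In PFOS P8-14 2 these medians were -0.24 and -0.52, and in the other 3 libraries they lay between 0.00 and 0.21. Control 3 was also the library with the most negative length correlation over all genes (-0.30) and the lowest Prox1 (17.1 TPM). The part of transcript length in the low choroid genes of control 3 was not tested. Folr1, with a median length of 747 bases, is among the shorter transcripts and was the lowest of the 32 genes in control 3.

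**Figure D4:**
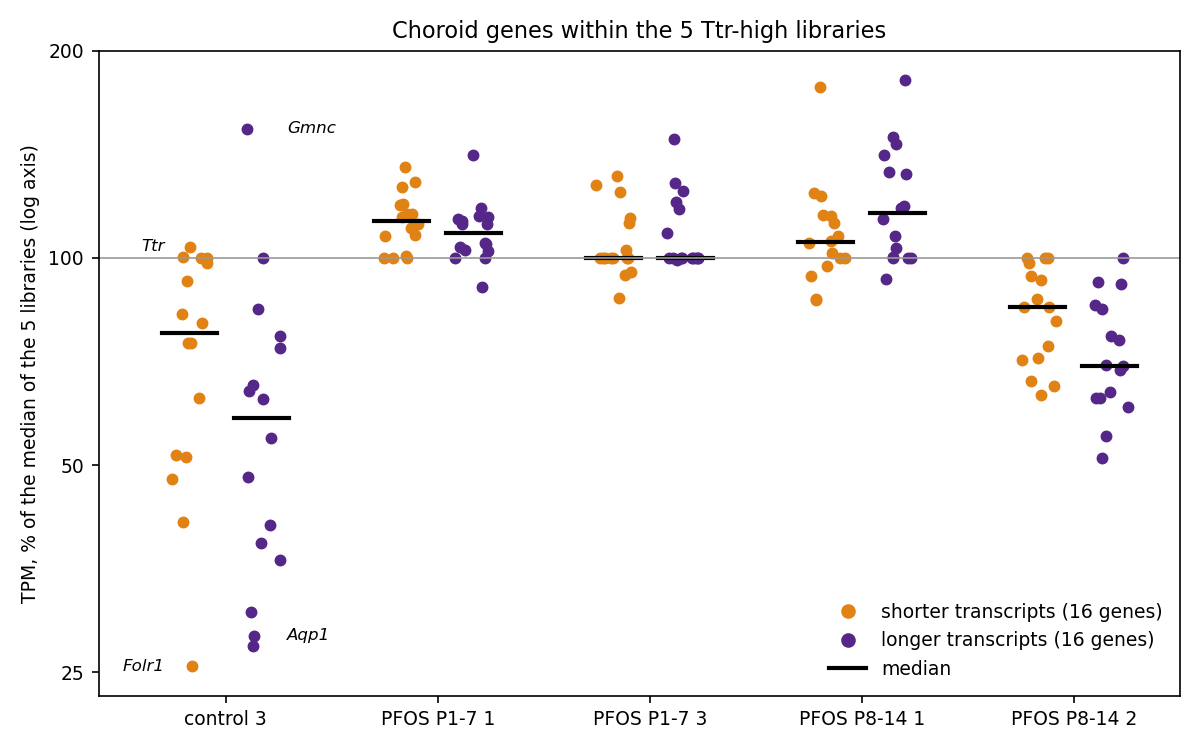
TPM of 32 choroid genes in each Ttr-high library as a percentage of the median of the 5 libraries (log axis), with shorter transcripts in orange, longer ones in purple and bars at the medians. Control 3 spreads from 25.5% (Folr1) to 154% (Gmnc) with Ttr at 104%, and PFOS P8-14 2 has no gene above 100%.

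In the Ttr-low libraries the 32 genes stood at a low level, which their choice by gap fixes. By gene, the Ttr-low median ran from 0.456% (Tmem72) to 36.1% (Spint2) of the Ttr-high median. Which cells made these transcripts was not tested. The median of the 32 genes there was 6.16% of the Ttr-high median in control 1, 5.28% in control 2, 6.01% in PFOS P1-7 2 and 7.53% in PFOS P8-14 3. Ttr stood lower, at 0.526%, 0.35%, 0.394% and 1.07%. PFOS P8-14 3, which had the most Ttr of these 4, was the highest of them for 10 of the 32 genes, and control 1 was the highest for 12. Between 14 and 17 of the 32 genes were under 1 TPM in each of these libraries, and in control 2 and PFOS P8-14 3 there were 1 and 2 genes listed at 0.

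The split crossed the exposure groups, so each group gave its own difference. The median log2 difference between Ttr-high and Ttr-low libraries over the 32 choroid genes was 2.26 in the control group, 3.10 in PFOS P1-7 and 2.68 in PFOS P8-14, and all 32 genes were above 0 in each, which the choice of genes fixes. For cilia genes it was 1.01, 0.66 and 0.57, so the control group had the smallest choroid and the largest cilia value. With 1 library on one side in every group, these differences were not tested.

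Exposure comparisons were fitted with limma on log2(TPM + 1) over all 14336 genes. Every group holds both Ttr-high and Ttr-low libraries, so the choice of the 590 genes gives each of them a spread within groups that keeps it from separating the groups, and their counts below are a description. Against control, 0 genes passed an adjusted p of 0.05 (Benjamini-Hochberg) in either PFOS group, and 0 passed between the PFOS groups. The counts against control rested on control 1, without which 2658 genes passed in PFOS P1-7 and 1741 in PFOS P8-14. Of these, 0 were among the 590, a count that their choice holds down. At an unadjusted p below 0.05, 1797 genes were higher (12.5%) and 830 lower (5.79%) in PFOS P1-7 than in control, 907 (6.33%) and 666 (4.65%) in PFOS P8-14 than in control, and 67 (0.467%) and 91 (0.635%) in PFOS P8-14 than in PFOS P1-7. Of the 590 genes, 15 were higher and 0 lower at that level in PFOS P1-7, 2 and 0 in PFOS P8-14, and 0 in either direction between the PFOS groups.

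The control group held 1 Ttr-high library and each PFOS group 2, and the group means of the 32 choroid genes differed in the same order. The 32 genes were chosen by their gap between the Ttr classes, so this order comes largely with their choice. Their median log2 difference from control was 1.43 in PFOS P1-7 and 1.22 in PFOS P8-14, with a median standard error (SE) of 1.01, and -0.10 between the PFOS groups. The PFOS comparisons with control share the 3 control samples. Folr1 measured 40.3 ± 33.3 TPM in PFOS P1-7 and 5.27 ± 7.81 TPM in control (SD, n = 3), a log2 difference of 2.63 (SE 1.45, limma adjusted p = 0.35). Ttr measured 7236 ± 6283 TPM in PFOS P1-7, 6473 ± 5516 TPM in PFOS P8-14 and 3503 ± 5991 TPM in control (SD, n = 3), with limma adjusted p of 0.607 and 0.644. Ttr set the split and Folr1 was separated by it, so their spread within groups comes with their choice. These p-values are a description.

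With the Ttr class as a factor beside the group, the median log2 difference of the 32 genes was 0.36 in PFOS P1-7 and 0.25 in PFOS P8-14 (median SE 0.21 in both), and again 0 genes passed. That factor was taken from a measured value, so its fit describes what is left within the classes. Kcnj13 came to 0.05 (SE 0.19) in PFOS P1-7 and Ttr to 0.13 (SE 0.31). Folr1 kept a log2 difference of 1.34 (SE 0.27, limma adjusted p = 0.114), the largest of the 32. The only Ttr-high control library in this fit is control 3, whose Folr1 was 25.5% of the median of the Ttr-high set. In the other direction, Lhb, the beta subunit of luteinizing hormone, picked after its values were seen, had a log2 difference of -1.35 in PFOS P1-7 (SE 0.21, limma adjusted p = 0.114), and it measured 7.8 TPM in control 3, the highest of all 9 libraries, and at most 3.79 TPM in the others.

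In the fit without the Ttr class, the separated genes with the smallest p in each exposure comparison were not among the 32. Slc12a2 measured 54.6 ± 12.2 TPM in PFOS P1-7 and 37.5 ± 7.21 TPM in control (SD, n = 3), with a log2 difference of 0.52 (SE 0.18, limma adjusted p = 0.216). Stxbp3a, a syntaxin-binding protein, differed by 0.44 (SE 0.15, limma adjusted p = 0.220), Calb1 by -0.42 (SE 0.18, limma adjusted p = 0.270) and Rasal1, a Ras GTPase activator, by -0.16 (limma adjusted p = 0.344). None of these passed the threshold, but their choice as separated genes adds spread within groups, so this says little about exposure.

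The same limit holds for the separated genes of the other comparisons. In PFOS P8-14 against control, Cldn19, a tight junction claudin, differed by 0.53 (SE 0.23) and Ctsl, the protease cathepsin L, by 0.31 (SE 0.14), both with a limma adjusted p that rounds to 0.45. Ephx4, an epoxide hydrolase, and U2af1l4, a splicing factor, both differed by -0.22 (SE 0.11), with a limma adjusted p of 0.471. Between the PFOS groups, Eci1, an enzyme of fatty acid oxidation, Cldn19, Rad1, a part of a DNA damage checkpoint clamp, and Stxbp3a had the smallest p, with log2 differences of 0.20, 0.37, -0.20 and -0.24 and a limma adjusted p that rounds to 1.00.

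**Figure D5:**
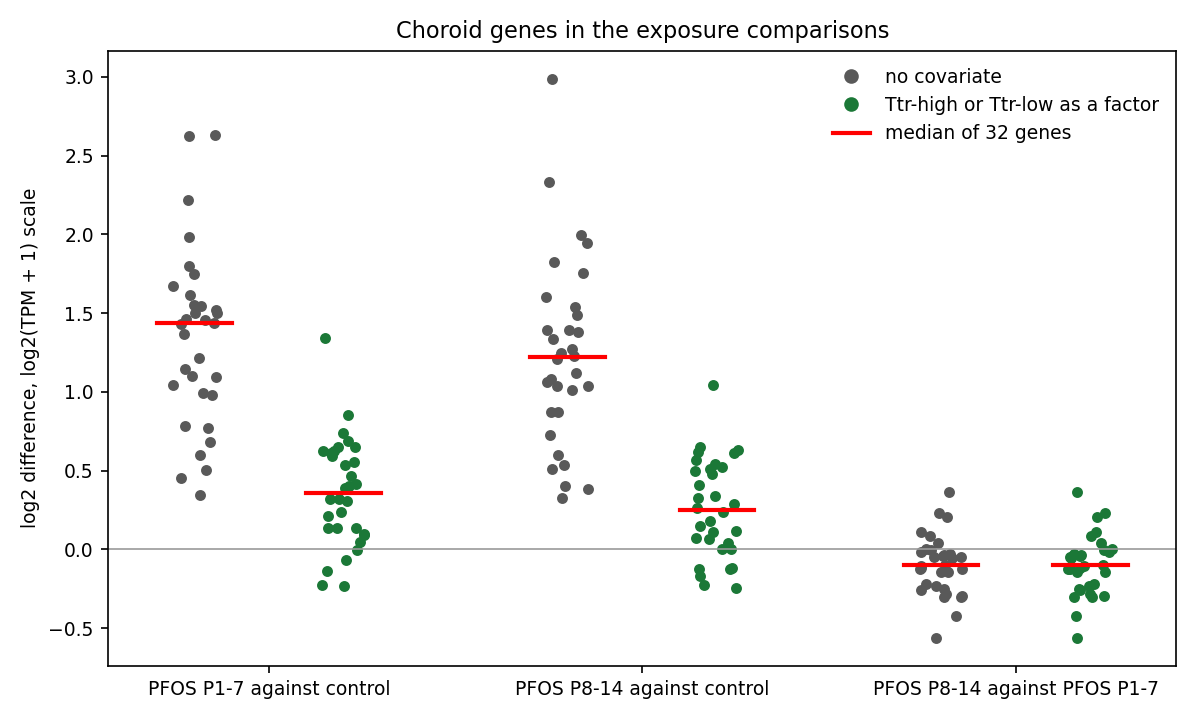
Log2 difference of 32 choroid genes in the 3 exposure comparisons, without a covariate (grey) and with the Ttr class as a factor (green), with red bars at the medians. The medians against control are 1.43 and 1.22 without and 0.36 and 0.25 with the factor, and -0.10 between the PFOS groups in both fits.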

How the data were processed

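Bulk RNA sequencing had been done on 9 mouse hippocampus samples, 3 per labelled group. The deposited values are TPM per gene symbol in 1 table, with 1 column per sample. The submitters' processing notes name RSEM 1.3.3, STAR 2.5.3a, fastp 0.21.0 and bcl2fastq, and the build mm10. Per the labels' protocols, a stranded mRNA kit was used. No depth can be read from TPM, so that of each sample is unknown. Which gene annotation was used is not given in the sources used here.

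Members and gene lists were chosen with earlier results of these data known, and the lists come from general knowledge. Of 23412 symbols, 14336 with at least 1 TPM in at least 3 samples were analysed, on log2(TPM + 1). Listed genes were matched by symbol or by older symbols from RefSeq. A gene counted as separated when all 5 Ttr-high values lay on one side of all 4 Ttr-low values. Exposure comparisons used limma 3.58.1 (R 4.3.3) over all 9 samples, with 1 mean per group, a mean-variance trend, two-sided tests and Benjamini-Hochberg adjustment at 0.05. The code was tested on simulated data.

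Named genes were the 5 markers, up to 4 members of each list by gap in each direction, the defining cell type markers, the 15 genes outside the lists with the largest gap in each direction, and, per exposure comparison and direction, the 2 separated genes of smallest p. A gene that this rule names is not reported here. Predicted genes were only counted, and others are named as picked after their values were seen. Gene positions and promoter windows are RefSeq's for GRCm38.p6, the build called mm10, and lengths are median transcript lengths from GENCODE M21. Alternatives were other pseudocounts, filters, scalings, gap sizes, a replicate block, fits on the compared groups alone, the Ttr class as a factor, and leaving out each sample. Counts within the choroid, cilia and stromal lists under these settings were added after seeing the data. Figures were drawn with matplotlib 3.10.9.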

Additional observations from a re-analysis of the deposited data

How the results depend on the processing

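Of the 590 higher genes, 343 remained with a filter at 5 TPM, 241 with a gap of at least 1.2 times and 112 with a gap of at least 1.5 times, and leaving out each sample in turn gave 642 to 848. Median-of-ratios scaling gave 617 higher genes, 530 of them shared. The 116 lower genes were less stable. Quantile normalization gave 238, of which 69 were shared, and median-of-ratios scaling gave 150, of which 67 were shared. Gaps of at least 1.2 and 1.5 times left 5 and 0 of the lower genes, and leaving out each sample gave 141 to 773. A larger gap or a stricter filter leaves fewer genes by construction, and a left-out sample more. The cause of the other shifts was not tested.

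Within the lists, the choroid count ran from 62 to 73 (73 without control 3) and the cilia count from 38 to 41 when a sample was left out, and the cilia count was 22 at a gap of 1.2 times. The stromal count was 1 under median-of-ratios scaling, under quantile normalization and at a gap of 1.2 times, and 2 to 4 when a sample was left out. Of the named genes, 56 of 60 higher and 14 of 17 lower ones were separated under every scaling run. Pseudocounts and left-out samples cannot end a separation. The exceptions were Bgn, Mbp, Rarres2 and Zic2 among the higher and Med27, Rrp9 and Svop among the lower genes. The gap of Mbp was -0.22 on the log2 scale under quantile normalization. Over all tested genes the median difference was -0.01 under the main and the median-of-ratios scaling and -0.02 under quantile normalization.

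In the exposure comparisons, leaving out each sample gave 0 to 2658 called genes for PFOS P1-7 against control, 0 to 1741 for PFOS P8-14 against control and 0 between the PFOS groups. The 590 genes differ within every group by their choice, so that 0 of them were called in any setting says nothing about stability. With the replicate number as a block, limma called 0 genes in all 3 comparisons. Deviations of same-numbered samples correlated at -0.03, 0.23 and 0.51 between PFOS P1-7 and control, at 0.17, 0.14 and -0.47 between PFOS P8-14 and control, and at 0.53, -0.36 and -0.29 between the PFOS groups. The labels do not say whether same-numbered samples share more than a number, and these values cannot decide it. TPM give no depth, so the precision of genes near 0 is unknown.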
